A study of Mus musculus with 2 samples.

Results

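The Bcl2 family apoptosis regulators described here are 10 of the 32285 genes counted in this series, matched by gene symbol, each to 1 identifier. They are the effectors Bax and Bak1, the BH3-only genes Bad, Bid, Bik, Bbc3, Pmaip1 and Bcl2l11, and the anti-apoptotic genes Bcl2l1 and Mcl1. The cells were embryonic stem cells of the inbred mouse strain C3H/HeSn-Paf/J, from 9 lines, with 3 lines each from XX, XO and XY embryos. All lines were pooled and captured in droplets as 1 library at an early passage (time 1) and as 1 library 10 passages later (time 2). Both libraries came from cultures in serum and leukaemia inhibitory factor over irradiated mouse embryonic fibroblasts, which serve as feeders. Cells could not be assigned to lines, so each time point is 1 sample, and no test between time points or between classes of cells was possible.

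Cells die through mitochondria when Bax or Bak1 oligomerises and opens the outer mitochondrial membrane, which releases cytochrome c. Anti-apoptotic members such as Mcl1 and Bcl2l1 (Bcl-xL) bind the effectors and the BH3-only proteins, and BH3-only proteins such as Bcl2l11 (Bim), Bbc3 (Puma), Pmaip1 (Noxa) and Bid either occupy these guardians or activate the effectors. Pluripotent cells are known to sit close to the threshold of this switch, and Bbc3, Pmaip1 and Bax are classical targets of p53.

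The proteins meet through the BH3 motif, whose helix fits a groove of the anti-apoptotic members. Its coding sequence is shown for the most abundant effector, for 3 BH3-only genes and for both anti-apoptotic genes, as examples of each role: Bax and Mcl1 are the most abundant members and Bik has the widest difference between the libraries. The sequences are those of GENCODE M21 transcripts on GRCm38, 60 bases each, 5′ to 3′ on the coding strand. Capitals mark the 18 bases, or 6 codons, from the conserved leucine to the conserved aspartate of the motif, found by translating the transcripts.
Bax: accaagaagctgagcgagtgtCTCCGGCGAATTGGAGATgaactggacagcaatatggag
Bik: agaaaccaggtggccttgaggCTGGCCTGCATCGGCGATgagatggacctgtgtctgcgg
Bbc3: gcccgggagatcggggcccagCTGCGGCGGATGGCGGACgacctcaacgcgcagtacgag
Bcl2l11: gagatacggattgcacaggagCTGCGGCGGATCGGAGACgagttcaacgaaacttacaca
Bcl2l1: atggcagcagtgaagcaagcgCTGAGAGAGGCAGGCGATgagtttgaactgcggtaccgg
Mcl1: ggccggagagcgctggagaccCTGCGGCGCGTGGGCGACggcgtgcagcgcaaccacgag
The Bax stretch lies in exon 3 at chr7:45465985-45466044 on the minus strand, that of Bbc3 in exon 3 at chr7:16313752-16313811 on the plus strand, and that of Bcl2l11 in exon 3 at chr2:128147129-128147188 on the plus strand. The Bcl2l1 stretch lies in exon 2 at chr2:152829685-152829744 on the minus strand and the Mcl1 stretch in exon 1 at chr3:95659415-95659474 on the plus strand. The Bik stretch crosses from exon 2 into exon 3 on chromosome 15. Of the 18 core bases, Bcl2l11 shares 14 with Bax, Bbc3 and Mcl1 share 12 each, Bik shares 10 and Bcl2l1 shares 8.

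After filtering, 23809 cells remained at time 1 and 24837 at time 2, with median depths of 43751 and 49890 unique molecular identifiers (UMIs) per cell. The libraries shared 2155 barcode sequences before filtering. Clusters called pluripotent stem cell-like held 9301 cells at time 1 and 19241 at time 2, and all 12 pluripotency markers were above 5 CPM (UMIs of a gene scaled by the summed UMIs of the class to parts per 1000000) in each of them. Among the 15 clusters, their summed marker level ranked 1 in the Jam2-led and 2 in the Rhox9-led cluster, at 12921 and 10644 CPM. It ranked 7 in the Cpne5-led and 9 in the Tcf15-led cluster, at 7246 and 5480 CPM, so clusters outside the class stood above them. The name is thus weaker in those clusters, and weakest in the Tcf15-led cluster. Different clusters made up this class in the 2 libraries: at time 1, 85.9% of its cells lay in the Rhox9-led cluster, and at time 2, 65.0% lay in the Cpne5-led and 19.7% in the Tcf15-led cluster. Cells were also classed by X dosage, as X-high or X-low, and X-high cells made up 55.8% of the class at time 1 and 14.9% at time 2. The levels below are summed UMIs per class of cells as CPM, in a method that counts each transcript once from its 3′ end, so transcript length does not scale them although capture can differ between genes. Intervals are exact 95% Poisson intervals, or normal ones on the log2 scale for the balance, and cover counting error only.

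Bax and Mcl1 dominated the family in pluripotent stem cell-like cells. Bax, the effector, stood at 564 CPM at time 1 and 488 CPM at time 2, while the other effector, Bak1, stood at 19.9 and 25.0 CPM. Mcl1, a short-lived guardian, stood at 350 CPM at time 1 and 307 CPM at time 2, while Bcl2l1 stood at 13.0 and 14.7 CPM. The 6 BH3-only genes lay between 14.9 and 36.9 CPM at time 1 and between 2.53 and 31.5 CPM at time 2. Bbc3 was the highest of them in both libraries and Bik the lowest. Because of this order, the balance of the family, taken as log2 of the summed pro-apoptotic over the summed anti-apoptotic CPM, follows mostly Bax and Mcl1.

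**Figure D1:**
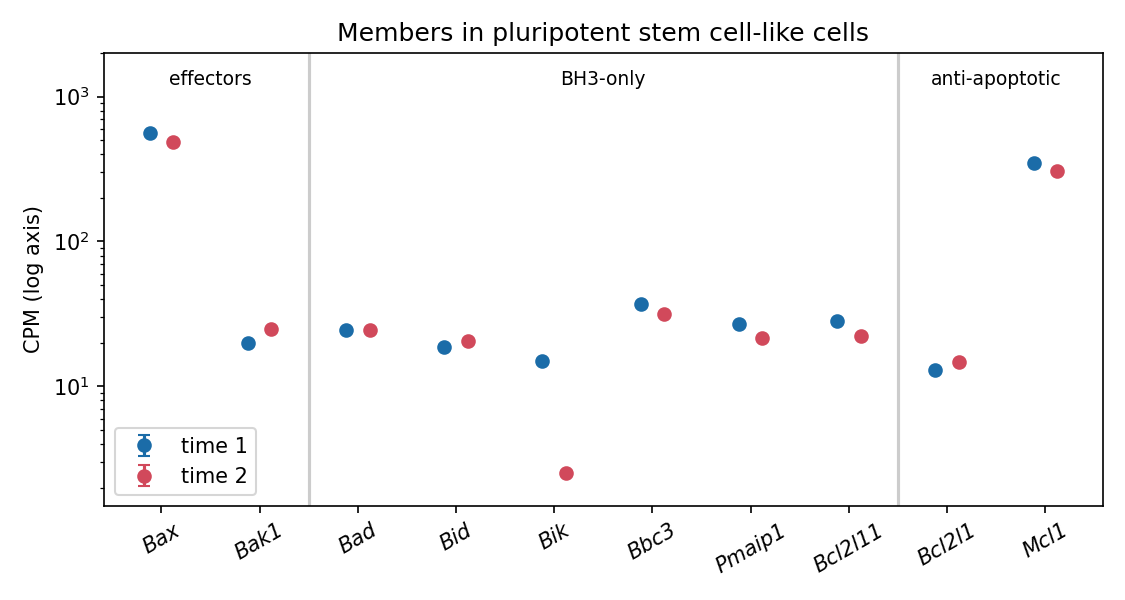
Level of each member in pluripotent stem cell-like cells at time 1 (blue) and time 2 (red), in CPM on a log axis, grouped by role; 95% Poisson intervals are drawn but are smaller than the points for most genes. Bax and Mcl1 lie above 300 CPM in both libraries, and Bik shows the widest gap between time points.

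The question of passage was addressed by comparing time 2 with time 1 in this class. At time 1 the balance was 1.02 (1.01 to 1.02), and at time 2 it was 0.98 (0.98 to 0.99), a difference of -0.033 (-0.043 to -0.023). The difference was -0.12 (-0.14 to -0.11) among X-high cells without a gain. Among X-low cells without a gain it was -0.011 (-0.040 to 0.018), an interval that reaches 0. Of these X-high cells, 79.4% lay in the Rhox9-led cluster at time 1 and 77.9% in the Jam2-led cluster at time 2. Of the X-low cells, 96.8% lay in the Rhox9-led cluster at time 1 and 82.1% in the Cpne5-led cluster at time 2. The part of cluster make-up in these differences was not tested. Over the whole class, summed pro-apoptotic members differed by -0.21 and anti-apoptotic members by -0.17 on the log2 scale. Both sides were thus lower at time 2 by similar amounts in the pooled class, before the scaling by trimmed means given below. In cells without a gain the pro- and anti-apoptotic sums differed by -0.099 and -0.022. The values were -0.084 and -0.073 in X-low cells without a gain, and -0.11 and 0.018 in X-high cells without a gain. A difference counted as past the fold threshold when CPM plus 1 was over 25% higher in either group, a log2 ratio of 0.32, among genes with a mean of at least 5 CPM over both groups. All 10 members passed that minimum: 0 were past the fold threshold higher at time 2, where 16.2% of 8832 genes were, and 3 were lower, where 24.5% were. The members' share on the lower side is near that background. The median log2 ratio was -0.20 over the members and -0.050 over all genes tested. Scaling by trimmed means moved all log2 ratios by 0.15, and 1 member was then past the fold threshold higher, where 27.1% of genes were, and 1 lower, where 15.9% were. Over the unweighted mean of log2 levels, in which Bax and Mcl1 count no more than the others, the balance differed by -0.34. In that mean Bik, which had the widest difference of any member, weighs as much as Bax, so the value is no measure of the other members in general.

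The lower members were Bik, Pmaip1 and Bcl2l11, all BH3-only. Pmaip1, which binds Mcl1, stood at 27.0 CPM at time 1 and 21.4 CPM at time 2, a log2 ratio of -0.32. Bcl2l11, a BH3-only gene with broad binding, stood at 28.3 and 22.2 CPM, a log2 ratio of -0.33. Both differences depended on which cells were compared. In X-low cells without a chromosome gain, the log2 ratio was -0.19 for Pmaip1 and -0.15 for Bcl2l11, short of the fold threshold. In X-high cells without a gain it was 0.25 for Pmaip1 and -0.73 for Bcl2l11. In the Rhox9-led cluster both were higher at time 2, Pmaip1 at 23.8 and 28.2 CPM and Bcl2l11 at 30.1 and 37.3 CPM. In the Jam2-led cluster both were lower, Pmaip1 at 46.1 and 40.7 CPM and Bcl2l11 at 18.8 and 14.7 CPM, and in the Cpne5-led cluster Pmaip1 stood at 15.7 and 15.5 CPM and Bcl2l11 at 22.5 and 24.6 CPM.

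Bik, a BH3-only gene at chr15:83526862-83544634 whose protein sits at the endoplasmic reticulum, had the widest difference between the libraries. It stood at 14.9 CPM at time 1 and 2.53 CPM at time 2, a log2 ratio of -2.17. The difference was present within both X classes of cells without a gain: X-low cells held 9.64 and 3.35 CPM (log2 ratio -1.29), and X-high cells 18.7 and 3.99 CPM (-1.98). Bik was lower at time 2 in all 11 cell states or clusters compared, and the counting interval of its CPM ratio lay below 0 on the log2 scale in 8 of them. Within the Rhox9-led cluster Bik stood at 16.4 and 9.45 CPM and within the Jam2-led cluster at 7.58 and 3.37 CPM. In those clusters the log2 ratios were -0.73 and -0.97, smaller in size than the pooled -2.17. The part of cluster make-up in the pooled value was not tested. Barcodes with 500 to 2000 UMIs, too shallow to pass as cells, carried Bik at 12.5 CPM at time 1 and 3.88 CPM at time 2. With 5% of the UMIs of each group taken off in the proportions of those barcodes, Bik was still past the fold threshold lower. That share was set and not measured. At these levels its removal could not have brought Bik under the threshold, so it does not show the part of RNA from outside the cells. All cells of a library can carry such RNA, so the 11 states are not independent of each other. Its part in their common direction was not tested. In fibroblast-like cells Bik stood near the floor, at 1.43 and 0.461 CPM. Bik was also 1 of 2 members, with Pmaip1, among the 2000 genes used for clustering, so differences of these genes between clusters are a description of the clustering too.

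**Figure D2:**
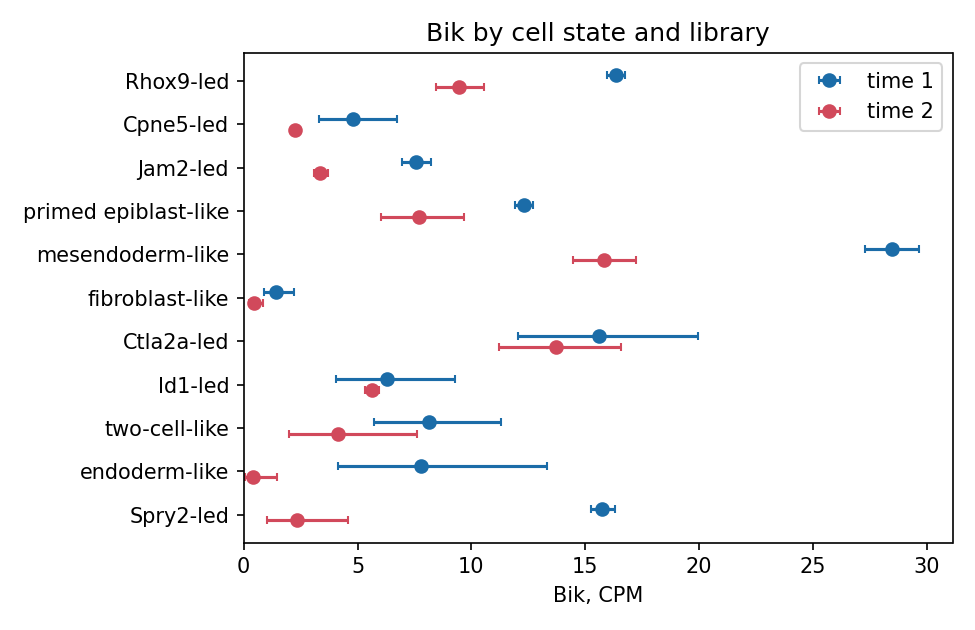
Bik in CPM in each of 11 cell states or clusters at time 1 (blue) and time 2 (red), with 95% Poisson intervals. Every red point lies left of its blue point, while the interval of the ratio reaches past 0 in the Ctla2a-led, Id1-led and two-cell-like groups.

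No other member had a pooled log2 ratio past the fold threshold, but several differed within states. Mcl1 was lower at time 2 in 10 of the 11 states and Bax in 10, with log2 ratios over the states between -0.30 and 0.19 for Mcl1 and between -0.87 and 0.20 for Bax. The counting interval lay below 0 in 6 states for Mcl1 and in 7 for Bax, and above 0 in 1 state for each. Bcl2l1 was higher at time 2 in 10 of 11 states, although its counting interval lay above 0 in only 3 and below 0 in 1. Bbc3 ranged from -1.21 in endoderm-like to 0.25 in Rhox9-led cells, with its interval below 0 in 5 states and above 0 in 3. Bid ranged from -0.23 to 0.71 and Bad from -0.13 to 0.62. Bak1 was past the fold threshold higher in X-high cells without a gain, at 20.3 and 28.8 CPM, with a log2 ratio of 0.48, and stood at 18.7 and 23.5 CPM in X-low cells without a gain, a log2 ratio of 0.31. In those comparisons 15.0% and 13.3% of the genes tested were past the fold threshold higher. On the lower side stood Bik and Bcl2l11 in X-high cells, beside 20.4% of genes, and Bik alone in X-low cells, beside 19.6%. Over all cells of the Rhox9-led cluster Bak1 stood at 18.04 CPM at time 1 and 15.85 CPM at time 2. In the Jam2-led cluster it stood at 30.06 and 30.54 CPM, and in the Cpne5-led cluster at 20.75 and 22.39 CPM. The part of cluster make-up in the Bak1 differences was not tested.

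Related genes outside the 10 members were read from lists, beside the same 16.2% of all genes higher and 24.5% lower. Of 15 other family genes, 5 passed the minimum, of which 1 was higher and 2 lower at time 2, with a median log2 ratio of -0.11. Bok, an effector-like member on chromosome 1, stood at 20.9 and 31.2 CPM. In cells without a gain it stood at 20.5 and 24.2 CPM, short of the threshold, and in X-low cells without a gain at 23.6 and 29.9 CPM, past it. Bnip3, which acts in mitophagy, stood at 283 and 60.1 CPM, and its relative Bnip3l at 190 and 139 CPM. Of 19 genes of the death machinery, 16 passed the minimum, with 2 higher, 5 lower and a median of 0.0195. The higher ones were Cycs, the cytochrome c gene, at 191 and 242 CPM, and Vdac3, a mitochondrial channel gene on chromosome 8, at 202 and 268 CPM. In cells without a gain Cycs stood at 188 and 238 CPM, past the threshold, and Vdac3 at 195 and 229 CPM, short of it. In X-low cells without a gain Cycs was short of it, at 197 and 233 CPM, and Vdac3 past it, at 191 and 249 CPM. Among the lower ones, the executioner caspase gene Casp6 stood at 12.1 and 4.26 CPM and Apaf1, the scaffold of the apoptosome, at 9.57 and 4.98 CPM. Of 21 p53 pathway genes, 20 passed the minimum, with 0 higher, 8 lower and a median of -0.12, led by Trp53inp1 at 58.9 and 28.7 CPM. The 8 lower became 4 in cells without a gain and 2, Trp53inp1 and Btg2, in X-low cells without a gain, where the median was 0.021. The backgrounds were 19.7% and 19.6% of genes lower, and 2 of 20 lies below the latter. Of 11 genes known to regulate the members, 10 passed, with 1 higher and 4 lower and a median of -0.23; Stat3, which acts downstream of leukaemia inhibitory factor, was the higher one at 14.9 and 31.2 CPM. Xiap and Usp9x, which lie on chromosome X, were lower in the pooled class, at 25.3 and 17.4 CPM and at 208 and 127 CPM, but short of the threshold in cells without a gain.

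Between cell states of 1 library, the balance differed from that of pluripotent stem cell-like cells by -0.62 to 0.91. Clusters were named from marker lists, and each named cluster outside the pluripotent class ranked 1 among the 15 clusters for its own list. For the primed epiblast list the margin was slight, at 433 CPM in the Fgf8-led and 432 CPM in the Krt8-led cluster, the one called mesendoderm-like. The state comparisons describe cells of the same library and were made on cells grouped by expression, so they are no test. X dosage differed between states too. At time 1, X-high cells made up 8.57% of primed epiblast-like and 10.3% of mesendoderm-like cells, but 55.3% of two-cell-like cells and 55.8% of the pluripotent class. At time 2 they made up 3.95% of Id1-led cells and 14.9% of the pluripotent class. The part of X dosage in the state differences was not tested.

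Primed epiblast-like cells, which resemble the epiblast after implantation, had 3 of the 6 BH3-only genes and the effector Bak1 past the fold threshold higher at time 1. Pmaip1 stood at 58.5 CPM against 27.0 CPM in pluripotent stem cell-like cells (log2 ratio 1.09), Bak1 at 36.4 against 19.9 CPM (0.84), Bbc3 at 55.2 against 36.9 CPM (0.57) and Bcl2l11 at 40.7 against 28.3 CPM (0.51). Bad, whose activity is set by phosphorylation, was lower at 16.5 against 24.4 CPM (-0.54). The remaining BH3-only genes were short of the threshold, with Bid at 21.7 against 18.8 CPM and Bik at 12.3 against 14.9 CPM. These are 4 members higher, where 21.0% of 9171 genes were, and 1 lower, where 17.8% were. The balance was 1.199 against 1.016, a difference of 0.18 (0.17 to 0.20). Summed pro-apoptotic members differed by 0.0064 on the log2 scale and anti-apoptotic members by -0.18. Bax stood at 496 against 564 CPM and Mcl1 at 307 against 350 CPM. Without Mcl1 the difference turned to -0.083. X-low pluripotent stem cell-like cells of time 1 had a balance of 1.056.

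The Id1-led cluster, nearly all from time 2, had a like set of members past the fold threshold. Against pluripotent stem cell-like cells of time 2, Pmaip1 stood at 52.1 and 21.4 CPM, Bbc3 at 56.5 and 31.5, Bcl2l11 at 34.6 and 22.2, and Bak1 at 36.5 and 25.0. Bad was lower at 16.3 and 24.6 CPM. That gave 4 members higher and 1 lower of 9 tested, against 19.2% and 16.7% of all genes tested, and a balance of 1.35 against 0.98. The Spry2-led cluster, nearly all from time 1 and shallower at a median of 28145 UMIs, had 3 members higher than pluripotent stem cell-like cells, where 8.96% of genes were, and 0 lower, where 23.3% were. These were Bak1 at 30.4 against 19.9 CPM, Bbc3 at 51.2 against 36.9 CPM and Pmaip1 at 35.6 against 27 CPM.

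**Figure D3:**
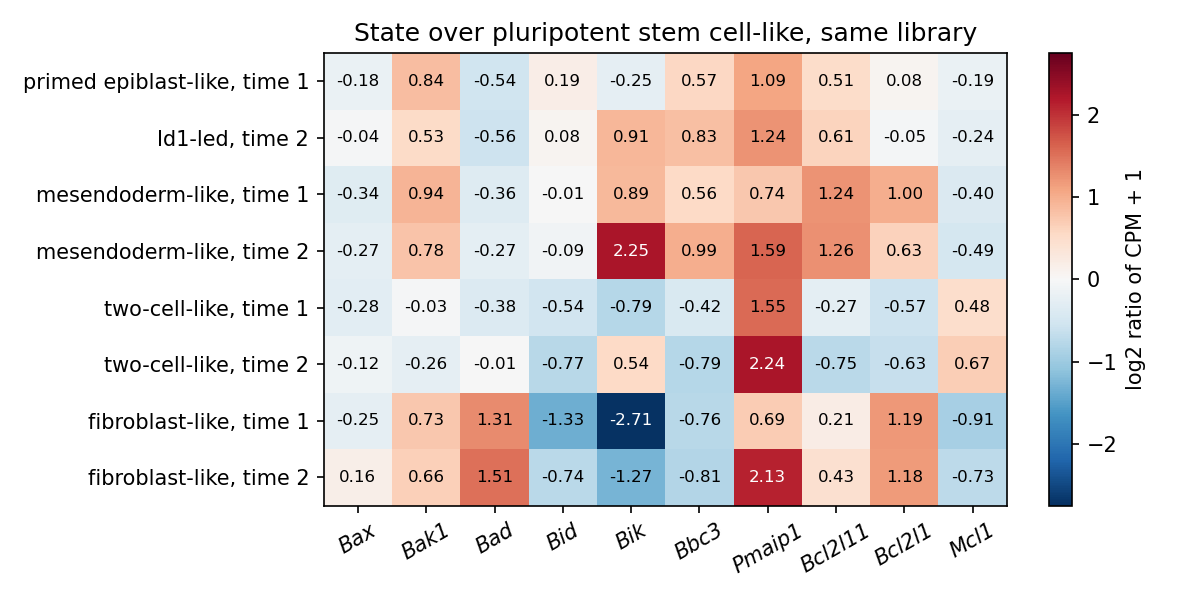
Heat map of the log2 ratio of CPM plus 1 of each member in primed epiblast-like, Id1-led, mesendoderm-like, two-cell-like and fibroblast-like cells over pluripotent stem cell-like cells of the same library, with the value in each field. Pmaip1 is positive in every row, from 0.69 to 2.24, while Mcl1 is positive only in the two-cell-like rows.

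Mesendoderm-like cells had 6 members higher in both libraries. Against pluripotent stem cell-like cells, Bcl2l11 stood at 68.0 and 28.3 CPM at time 1 and at 54.7 and 22.2 CPM at time 2. Bcl2l1, the guardian, was higher as well, at 26.9 against 13.0 CPM and at 23.4 against 14.7 CPM, whereas Mcl1 was lower, at 264 against 350 CPM and at 218 against 307 CPM. The 6 higher members were Bak1, Bik, Bbc3, Pmaip1, Bcl2l11 and Bcl2l1, where 29.5% of genes tested were higher at time 1 and 35.5% at time 2. Bax, Bad and Mcl1 were lower at time 1, where 20.1% of genes were, and Mcl1 alone at time 2, where 22.3% were. The balance was 1.31 at time 1 and 1.51 at time 2.

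Fibroblast-like cells, which express the markers of the irradiated feeders, had the highest balance of the 9 states or clusters with cells at both times, at 1.643 (1.584 to 1.702) at time 1 and 1.89 (1.85 to 1.94) at time 2. Mcl1 was low, at 186 and 185 CPM, and Bcl2l1 high, at 30.9 and 34.6 CPM. Bad stood at 61.9 and 71.9 CPM, above every other state at both times. Pmaip1 differed between the libraries, at 44.2 CPM at time 1 and 96.8 CPM at time 2. Against pluripotent stem cell-like cells 4 members were higher and 4 lower at time 1, where 38.1% and 43.9% of genes were, and 5 were higher and 3 lower of 9 tested at time 2, where 41.0% and 42.2% were. In the p53 pathway list 12 of 21 genes were higher at time 1 and 15 of 21 at time 2, including the cell cycle inhibitor gene Cdkn1a at 649 and 780 CPM against 73.0 and 58.3 CPM.

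Two-cell-like cells had the lowest balance of these 9, at 0.39 (0.31 to 0.47) at time 1 and 0.38 (0.27 to 0.48) at time 2. They are a rare state that re-expresses genes of the early embryo, here 103 and 44 cells. Mcl1 was at its highest there, at 490 CPM at time 1 and 488 CPM at time 2. Pmaip1 was at its highest too, at 81.1 and 105 CPM, while Bid stood at 12.7 and 11.6 CPM and Bbc3 at 27.4 and 17.8 CPM. Against pluripotent stem cell-like cells 2 members were higher, where 18.8% and 19.2% of genes were, and 5 and 4 were lower, where 25.1% and 21.6% were. Endoderm-like cells of time 2 had a balance of 0.65 (0.54 to 0.75) from 80 cells, with Bax at 224 CPM and Bcl2l11 at 5.71 CPM, the lowest level of each gene in any state. Of 9 members tested there, Bak1, Bad and Bcl2l1 were higher and the other 6 lower, where 37.0% and 27.8% of genes were. Their 48 cells of time 1 had a balance of 1.23 (1.06 to 1.39).

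**Figure D4:**
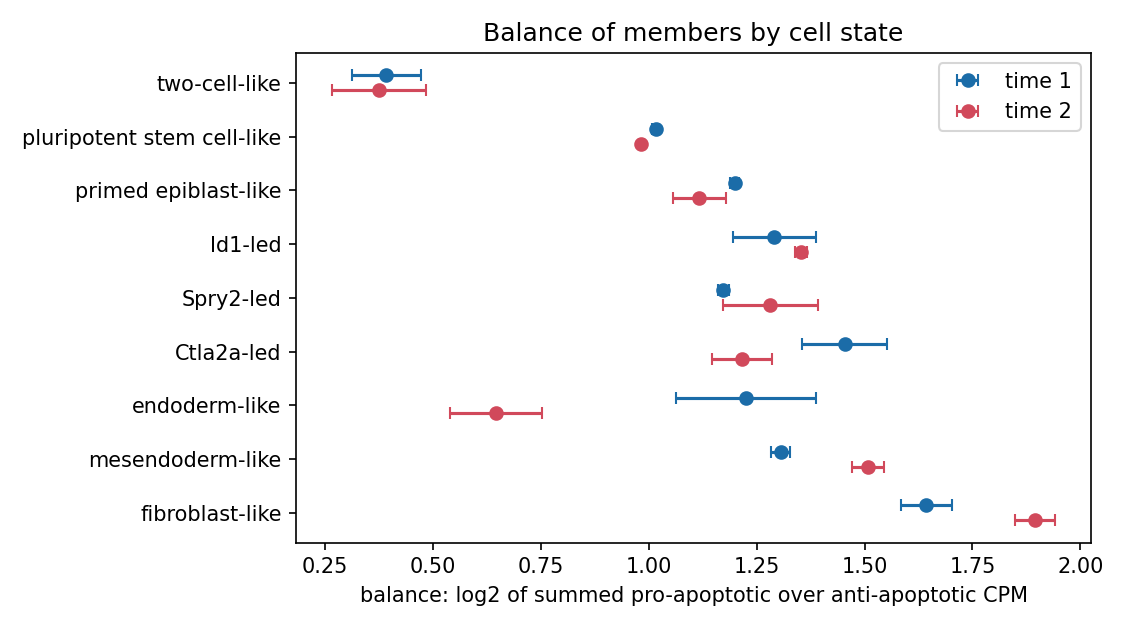
Balance of the members, as log2 of summed pro-apoptotic over anti-apoptotic CPM, in 9 states or clusters at time 1 (blue) and time 2 (red), with 95% counting intervals. Two-cell-like cells lie lowest at 0.39 and 0.38, and fibroblast-like cells highest at 1.64 and 1.89.

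Over 17 groups of cluster and library with at least 100 cells, the log2 levels of Mcl1 and Bcl2l1 had a Pearson correlation of -0.86, the most negative of any pair of members. Groups share libraries, so this is a description. The ends of the range were the fibroblast-like, S100a4-led cluster of time 2, with Mcl1 at 185 and Bcl2l1 at 34.6 CPM, and the two-cell-like, B020031M17Rik-led cluster of time 1, at 490 and 8.39 CPM. Between them the order was not strict: the Jam2-led cluster of time 1, at 383 and 14.8 CPM, stood above the Rhox9-led cluster of that library, at 345 and 12.6 CPM, in both genes. Among the 7678 genes with at least 20 CPM in any group, Bcl2l1 was most like Myo1c (r = 0.97) and Tnfaip1 (0.96), and Mcl1 most like Platr27 (0.96) and Prps1 (0.95). Bcl2l11 was most like Cd276 (0.96) and Plekhg2 (0.94), Bad most like Copg1 and Cd63 (both 0.96), and Bik most like Podxl and Pdcd10 (both 0.92). Bbc3 was most like Pbx2 and Itgb3bp (both 0.93), Bak1 most like Lamtor5 (0.91) and Thoc7 (0.90), and Bid most like Ezr (0.91) and Parl (0.90). The best matches of Pmaip1 were Ammecr1 and Hsd17b12 (both 0.86) and those of Bax Lamtor2 and Hsd17b10 (both 0.81). Bax ranged over only 0.49 on the log2 scale across these groups, and Bik over 4.33.

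Cell-to-cell spread within the pluripotent class was read from the Fano factor, the variance over the mean, with every cell thinned to 10000 UMIs. Pmaip1 had the highest value, at 1.428 at time 1 and 1.424 at time 2, followed by Mcl1 at 1.378 and 1.249. Bik stood at 1.248 and 1.10, and the remaining members between 1.01 and 1.22, where 1 is the value of counting error alone. The part above 1 also depends on the level of a gene, so this order is not one of spread at equal level. At time 1 the mean per thinned cell was 3.41 UMIs for Mcl1, 0.275 for Pmaip1 and 0.156 for Bik.

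X dosage was compared within the pluripotent class, because it differed between the libraries, between states and between gain classes. Pmaip1 was higher in X-high cells, at 31.7 against 19.2 CPM at time 1 and 36.8 against 18.7 CPM at time 2. Bid, which links death receptors to mitochondria, was lower, at 16.8 against 22.3 CPM and 14.6 against 21.9 CPM. Bik stood at 18.7 against 8.83 CPM at time 1 and at 4.02 against 2.21 CPM at time 2, the latter under the minimum. The Bik level of primed epiblast-like cells of time 1, at 12.3 CPM, lay between those of the X classes at time 1. At time 1, 2 members were higher and 1 lower, where 12.7% and 7.88% of genes were, and at time 2, 1 was higher and 1 lower of 9 tested, where 16.9% and 12.6% were. Mcl1 stood at 364 against 328 CPM and at 361 against 295 CPM. None of the 10 members lies on chromosome X. The balance differed, X-high minus X-low, by -0.060 (-0.078 to -0.041) at time 1 and by -0.12 (-0.13 to -0.10) at time 2. Cluster make-up moved with X dosage: 69.0% of X-high cells of time 2 lay in the Jam2-led cluster, against 0.74% of X-low cells, and its part in these differences was not tested.

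Gain classes compared cells whose share of UMIs on chromosome 1, 8 or 14 was at least 1.3 times the reference with cells without such a gain. No member lies on these chromosomes, although members could be part of the autosomal total over which the share was taken. At time 2 the pluripotent class held 4025 cells without a gain, 4940 with a gain of chromosome 1 alone, 2656 with chromosome 8 alone and 3003 with both, and at time 1 it held 7955 without a gain and 733 with chromosome 8 alone. X-high cells made up 59.5% of the time 2 cells without a gain, but 2.89%, 5.12% and 0.83% of the 3 gain classes. Each comparison was therefore also made among X-low cells, of which 1254 had no gain.

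Over all cells, Pmaip1 was lower in every one of these gain classes. It stood at 30.1 CPM without a gain and at 18.7, 14.5 and 15.3 CPM with gains of chromosome 1, chromosome 8 and both at time 2. Among X-low cells the same 4 values were 17.5, 18.7, 14.5 and 15.6 CPM, so mainly the level without a gain differed between the settings. At time 1 Pmaip1 stood at 15.3 CPM with a gain of chromosome 8 and 27.9 CPM without, and at 15.2 and 20.1 CPM among X-low cells. Bid stood in the opposite order at time 2, at 16.3 CPM without a gain and 20.6, 21.3 and 21.3 CPM with gains, but at 20.7, 20.9, 22.0 and 21.5 CPM among X-low cells.

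Counts of members past the fold threshold were lower among X-low cells than over all cells at time 2, but the same at time 1. For chromosome 1 alone, 0 of 9 members were higher (7.79% of genes) and 1 lower (13.7%). For chromosome 8 alone at time 2, Bad and Bid were higher (9.65% of genes) and Pmaip1 lower (11.0%), and for both chromosomes Bid and Bcl2l11 were higher (9.11%) and Pmaip1 lower (15.6%). Among X-low cells of time 2, 0 of 9 members were past the threshold in any of the 3 comparisons. The backgrounds there were 5.11% higher and 5.29% lower for chromosome 1, 1.84% and 1.68% for chromosome 8, and 4.78% and 5.18% for both. At time 1, Bik and Pmaip1 were lower with chromosome 8 alone over all cells, where 13.0% of genes were lower, and also among X-low cells, where 6.07% were. In both settings 0 members were higher, where 7.42% and 5.36% of genes were. Bik stood there at 6.62 CPM with the gain and 9.64 CPM without, a log2 ratio of -0.48. The comparisons at time 2 share their cells without a gain. Chromosome 14 was gained together with chromosome 1 in 2506 cells and with both others in 671. Bid stood at 23.5 and 25.0 CPM there, past the fold threshold higher than over all cells without a gain, where 14.4% and 13.2% of genes were. Bbc3 was lower with chromosomes 1 and 14, at 25.3 against 33.6 CPM, where 15.8% of genes were lower, and Pmaip1 with all 3, at 21.5 against 30.1 CPM, where 15.6% were. X-high cells made up 0.48% and 0.45% of these classes. X-low cells without a gain held Bid at 20.7, Bbc3 at 37.9 and Pmaip1 at 17.5 CPM, so the class with all 3 gains stood above them in Pmaip1, and no comparison of these classes was made among X-low cells alone.

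**Figure D5:**
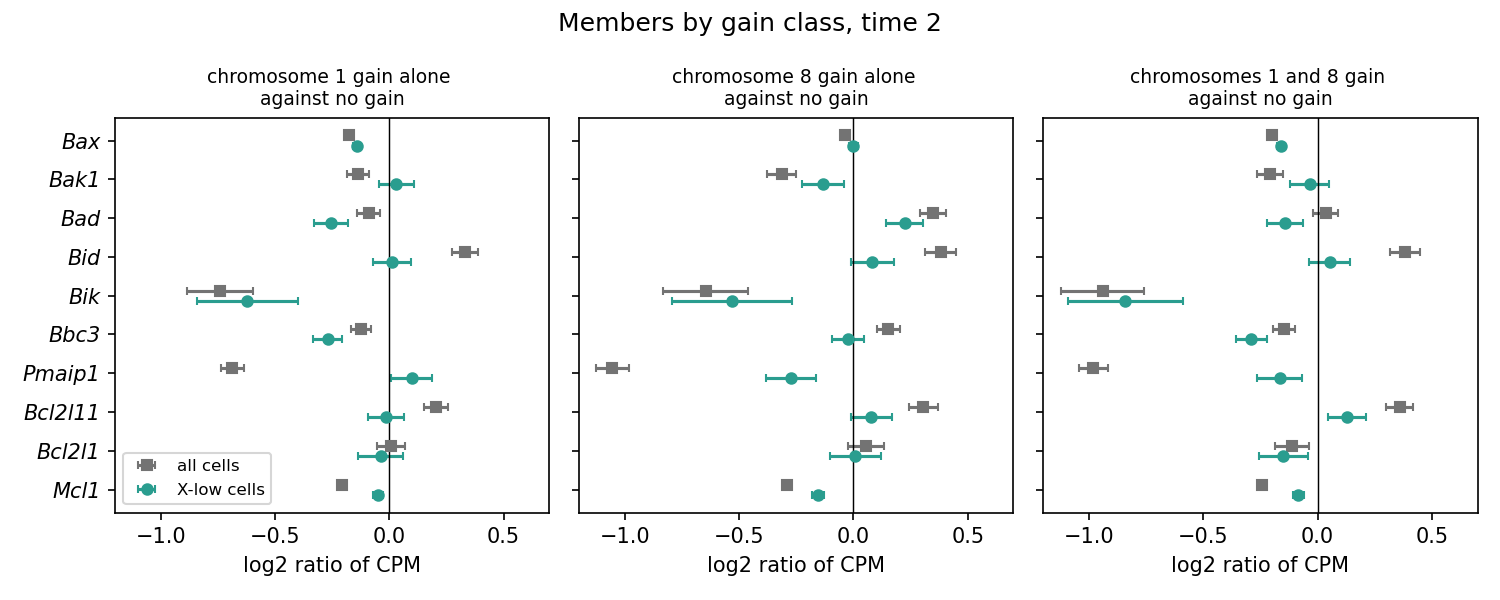
Log2 ratio of CPM of each member in 3 gain classes over cells without a gain at time 2, for all pluripotent stem cell-like cells (grey squares) and X-low cells only (green circles), with 95% intervals of counting error. The grey Pmaip1 points lie far to the left of 0 and the grey Bid points to the right, while the green points of both lie closer to 0. Bik stays to the left in both sets, although its level was below the 5 CPM minimum.

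The balance differed most for chromosome 8 alone at time 2, at 1.18 against 0.94 without a gain, a difference of 0.24 (0.22 to 0.26). Among X-low cells it was 1.22 against 1.07, a difference of 0.15 (0.12 to 0.18), with Mcl1 at 276 against 307 CPM and Bax at 523 CPM in both. Within the largest cluster the difference was 0.092, and over the unweighted mean of log2 levels it was 0.034. Without Mcl1 the difference over all cells turned to -0.088. For chromosome 1 alone and for both chromosomes the differences were 0.035 and 0.057 over all cells, but -0.084 and -0.059 among X-low cells, and -0.088 and -0.076 within the largest cluster. X dosage and cluster make-up cannot be told apart here: 49.0% of all cells without a gain, but 3.27% of X-low ones, lay in the Jam2-led cluster. For chromosome 1 a gain threshold of 1.4 also turned the difference, to -0.062. With chromosomes 1 and 14 gained the balance was 0.86, a difference of -0.079 (-0.099 to -0.059) from all cells without a gain. With all 3 gained the balance was 0.94, a difference of 0.0024 (-0.033 to 0.037). At time 1, chromosome 8 alone gave a difference of 0.0041 (-0.027 to 0.035) over all cells and -0.062 (-0.10 to -0.025) among X-low cells. The chromosome 8 class therefore had no common direction at the 2 time points among X-low cells, and with 1 library each this difference was not tested. Median depth was lower in the chromosome 8 class, at 44125 UMIs against 54189 at time 2. With cells of time 2 thinned to at most 10000 UMIs each, the difference was 0.24. Thinning evens the weight of cells but keeps the expected proportions within each, so it cannot show whether cells of different depth differ in make-up.

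Family and death machinery genes on the gained chromosomes were read beside the members, although their UMIs could contribute to the gain calls. With chromosome 1 alone at time 2, Bok stood at 34.7 against 24.2 CPM, past the fold threshold. Among X-low cells it stood at 35.3 against 29.9 CPM, short of it. Bcl2 stood at 0.714 against 0.544 CPM and Casp8 at 0.682 against 0.576 CPM, too low to be compared. With chromosome 8 alone at time 2, Vdac3, a channel of the outer mitochondrial membrane, stood at 309 against 229 CPM, past the threshold. Among X-low cells it stood at 310 against 249 CPM, short of it. At time 1 Vdac3 stood at 298 against 195 CPM, past it. Bok, which is not on chromosome 8, stood at 29.2 against 24.2 CPM with chromosome 8 alone at time 2, short of the threshold. At time 1 Bok stood at 26.6 against 20.5 CPM, past it. With chromosomes 1 and 14, Vdac3 stood at 284 against 229 CPM, short of it. With chromosomes 1 and 14, Vdac2 stood at 553 against 404 CPM, Bnip3l at 172 against 132 CPM and Bcl2l2 at 1.33 against 1.31 CPM. Of the p53 pathway genes on chromosome 1, Mdm4, an inhibitor of p53, stood at 100 against 68.9 CPM with chromosome 1 alone and at 102 against 72.8 CPM among X-low cells, past the fold threshold in both. Phlda3 stood at 77.0 against 69.3 CPM and, among X-low cells, at 78.5 against 69.98 CPM, short of it in both. Btg2 was short of it over all cells, at 22.0 against 20.3 CPM, and past it among X-low cells, at 22.7 against 16.999 CPM. On chromosome 14, Tnfrsf10b, a death receptor gene, stood at 8.02 against 7.70 CPM with chromosomes 1 and 14, short of it.

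Barcodes above the limit of 10% mitochondrial UMIs, 356 at time 1, were compared with pluripotent stem cell-like cells because such barcodes are usually damaged cells. Bbc3 stood at 57.1 against 36.9 CPM, Pmaip1 at 48.4 against 27.0 CPM and Bcl2l11 at 47.1 against 28.3 CPM, while Bax stood at 350 against 564 CPM. The balance was 0.99 against 1.02, a difference of -0.023 (-0.091 to 0.046), not detectable at this depth. In all, 4 members were higher and 5 lower, where 40.2% and 21.6% of genes were. These barcodes were not sorted into states, so they can hold any state, and state and damage cannot be told apart here. Primed epiblast-like cells of time 1 held Bbc3 at 55.2, Pmaip1 at 58.5, Bcl2l11 at 40.7 and Bax at 496 CPM. Mesendoderm-like cells of time 1 held them at 54.8, 45.8, 68.0 and 447 CPM.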

How the data were processed

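For each library the authors deposited a matrix of UMI counts, whole numbers with 1735810403 UMIs at time 1 and 1843588321 at time 2. The submitters' processing notes name bcl2fastq 2.20.0.422, Cell Ranger 6.1.2, mm10 and GRCm38; the annotation release is not given in the sources used here. Positions are from GENCODE M21, which matched 32235 identifiers. Cells were barcodes above 18315 UMIs at time 1 and 18645 at time 2, with 1000 genes and at most 10% mitochondrial UMIs. Doublets were removed at a Scrublet score of 0.2, set after the automatic threshold had marked 2.14% and 0.294% of cells; it marked 7.49% and 12.1%. Clustering used 2000 variable autosomal genes in scanpy 1.11.5 (Leiden resolution 0.5).

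Gains were read at 10000 UMIs per cell, at a ratio of 1.3. X dosage and Y UMIs were read from all UMIs of a cell, so depth was not made equal for them. The X ratio is the X share of a cell over the median of Y-positive pluripotent stem cell-like cells of its library. X-high means an X ratio of at least 1.2. Y-positive cells, with at least 2 Y UMIs, stayed out of both X classes, as did cells with 1 Y UMI. Counts were summed per class and compared as log2 of CPM plus 1. Steps were tested on simulated data: genes lowered to a mean under 5 CPM drop out of the comparison and cannot be called.

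Members and lists were chosen with earlier results of these data known. All members were named. Of a list, up to 3 genes per direction furthest past the fold threshold were eligible, with those on chromosomes 1, 8 and 14. Bid overlaps Bcl2l13, Bad overlaps Gpr137 and Bak1 overlaps Ggnbp1 on the opposite strand. TMM factors came from edgeR 4.0.16. Of the listed genes, 1 is not reported here.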

Additional observations from a re-analysis of the deposited data

Results flagged for a closer look

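In cells without a chromosome gain, 2 members differed between time points in opposite directions in the X classes, each with a counting interval off 0. Pmaip1 had a log2 ratio of time 2 over time 1 of 0.25 in X-high cells and -0.19 in X-low cells. Bad had -0.16 in X-high cells and 0.21 in X-low cells. Each value compares 1 library with 1 library, so the difference between the X classes was not tested. Cluster make-up moved too, and its part was not tested. The X-high cells were 79.4% Rhox9-led at time 1 and 77.9% Jam2-led at time 2. The X-low cells were 96.8% Rhox9-led at time 1 and 82.1% Cpne5-led at time 2.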

How the results depend on the processing

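No paired analysis was possible because each time point is 1 library, which also leaves no replicate to leave out. The balance differences below are log2 values, the X-low, X-high and largest-cluster settings marked as combined were added after seeing the data, and the cause of each move was not tested.

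Time 2 minus time 1, -0.033 as reported, was -0.34 over the mean of log2 values, -0.39 without Mcl1, -0.023 with 5% background RNA subtracted, -0.079 with each cell at 10000 UMIs, -0.063 over all filtered cells, -0.0999 with primed epiblast-like cells, -0.045 in X-low cells and -0.076 in cells without a gain. In the combined settings it was -0.011 in X-low and -0.12 in X-high cells without a gain. The primed epiblast-like difference, 0.18 as reported, was 0.33 over the mean of log2 values, -0.083 without Mcl1, 0.68 without Bax and 0.16 at 10000 UMIs.

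For chromosome 1 alone, 0.035 as reported, it was -0.052 over the mean of log2 values, -0.17 without Mcl1, 0.078 without Bax, -0.0014 at 10000 UMIs, -0.038 over all filtered cells, 0.13 and -0.062 at gain thresholds of 1.2 and 1.4, 0.081 with the other autosomes as reference, -0.084 in X-low cells, -0.088 within the largest cluster and -0.074 with both combined. For chromosomes 1 and 8, 0.057 as reported, it was -0.0037 over the mean of log2 values, -0.068 without Mcl1, 0.12 without Bax, -0.044 over all filtered cells, 0.11 and 0.026 at thresholds of 1.2 and 1.4, 0.079 with the other autosomes, 0.078 with calls from all UMIs, -0.059 in X-low cells, -0.076 within the largest cluster and -0.070 with both combined.

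For chromosome 8 alone at time 2, 0.24 as reported, it was 0.034 over the mean of log2 values, -0.088 without Mcl1, 0.18 over all filtered cells, 0.27 and 0.22 at thresholds of 1.2 and 1.4, 0.15 in X-low cells, 0.092 within the largest cluster and 0.12 with both combined. At time 1, 0.0041 as reported, it was -0.21 over the mean of log2 values, -0.12 without Mcl1, -0.11 without Bax, -0.028 at 10000 UMIs, -0.083 over all filtered cells, -0.045 with primed epiblast-like cells, 0.035 at a threshold of 1.4, -0.062 in X-low cells, -0.040 within the largest cluster and -0.078 with both combined.

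Of members past the fold threshold higher at time 2, 0 as reported, there was 1 with a pseudocount of 0.1, with trimmed mean scaling, in cells without a gain, in X-high cells without a gain and with background subtracted, where 16.9%, 27.1%, 13.2%, 15.0% and 16.98% of genes were. Of 3 lower, the count was 1 with trimmed mean scaling, at 10000 UMIs, in X-low cells and in X-low cells without a gain, where 15.9%, 24.1%, 22.3% and 19.6% of genes were. Pmaip1 turned from lower to higher at time 2 in cells without a gain (0.11) and X-high cells without a gain (0.25), and with chromosome 1 alone in X-low cells (0.092). Of the other single-member values, 354 moved beyond their counting interval and 523 did not. Members under 5 CPM, such as Bik at time 2, are limited by depth in the small states.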

Other observations

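Y-positive cells, which stayed out of both X classes, numbered 651 at time 1 and 1299 at time 2 in the pluripotent class. Bik stood there at 9.59 and 2.36 CPM and Pmaip1 at 21.4 and 16.6 CPM. The balance was 1.02 and 0.93. Immune-like cells, 53 at time 1, had a balance of 0.73 (0.61 to 0.86) with Mcl1 at 386 CPM. The Krt18-led cluster, 69 barcodes of time 1 with a median of 352626 UMIs, had Mcl1 at 189 CPM, Bik at 26.6 CPM and a balance of 1.83 (1.78 to 1.87).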
